A study of Mus musculus with 8 samples.

Results

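A set of 10 genes that shape the membrane of the endoplasmic reticulum (ER) or belong to the TMBIM family of cell-death regulators was followed in mouse spleen dendritic cells. They were the reticulons Rtn1, Rtn3 and Rtn4, the atlastins Atl2 and Atl3, the receptor expression-enhancing proteins Reep3 and Reep5, and the TMBIM genes Tmbim1, Tmbim4 and Tmbim6. Members were the rows of the gene count table with these symbols, and all 10 were found among 31053 genes. The set was chosen by symbol, but selected on the WT and CKO counts of these same libraries, which were already known and among which Rtn4 and Tmbim6 were clear decreases. The differences between genotypes given for them are therefore descriptions, and no p-value is printed for a member. Whether a member passed a threshold is stated below as a description too, not as a test of that member.

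The cells were conventional dendritic cells (cDCs), sorted as lineage-negative, MHC class II-positive and CD11c-positive. Before the sort, splenocytes enriched for dendritic cells were cultured for 9 h with 100 nM CpG-B, a DNA ligand of the endosomal receptor TLR9. The 4 WT libraries (D142, D150, D154 and D164) and the 4 CKO libraries (D146, D149, D163 and D169) all received this stimulus, so no unstimulated state was compared. The sources used here name neither the gene deleted in CKO nor the driver of the deletion, the strain, the sex or the age, so the deletion itself was not checked. Total counts ran from 25304765 to 40950088 per library, and the members had between 376 and 25367 counts in a library.

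The ER is a continuous network of flat sheets and narrow tubules. Reticulons and REEP proteins insert a hairpin into the outer leaflet and bend the membrane into tubules, and atlastins are GTPases that fuse tubules into junctions. TMBIM proteins are multi-pass membrane proteins that share the BAX inhibitor motif. TMBIM6, also called BAX inhibitor-1, sits in the ER, where it lowers the releasable calcium store and restrains the stress sensor IRE1. In mouse macrophages the Nogo-B form of RTN4 has been tied to TLR9 traffic, the receptor stimulated here.

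The promoter windows of Rtn4, which was far lower in CKO, of Rtn3, a reticulon with a smaller step down, and of Atl2, which was higher, are shown because the 10 genes did not move as a block. Each runs 5′ to 3′ on the gene's own strand, from 250 bases before to 50 bases after a start site, and comes from RefSeq (GRCm38.p6). Capitals mark matches on either strand to CCAAT or to the GC box GGGCGG. The windows are chr11:29692648-29692947 (plus strand) for Rtn4, chr19:7483242-7483541 (minus strand) for Rtn3 and chr17:79896074-79896373 (minus strand) for Atl2.
Rtn4: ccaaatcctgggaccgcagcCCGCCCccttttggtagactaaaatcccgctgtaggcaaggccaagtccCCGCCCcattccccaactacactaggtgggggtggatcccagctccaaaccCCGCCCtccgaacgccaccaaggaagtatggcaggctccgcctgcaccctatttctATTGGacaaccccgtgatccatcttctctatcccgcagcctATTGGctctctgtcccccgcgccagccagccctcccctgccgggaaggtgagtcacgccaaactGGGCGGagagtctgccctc
Rtn3: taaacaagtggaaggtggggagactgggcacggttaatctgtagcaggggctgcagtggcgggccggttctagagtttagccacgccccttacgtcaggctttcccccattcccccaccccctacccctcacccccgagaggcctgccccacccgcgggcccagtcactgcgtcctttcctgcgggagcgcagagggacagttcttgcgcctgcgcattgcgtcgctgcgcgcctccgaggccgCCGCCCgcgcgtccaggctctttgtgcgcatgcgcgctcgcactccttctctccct
Atl2: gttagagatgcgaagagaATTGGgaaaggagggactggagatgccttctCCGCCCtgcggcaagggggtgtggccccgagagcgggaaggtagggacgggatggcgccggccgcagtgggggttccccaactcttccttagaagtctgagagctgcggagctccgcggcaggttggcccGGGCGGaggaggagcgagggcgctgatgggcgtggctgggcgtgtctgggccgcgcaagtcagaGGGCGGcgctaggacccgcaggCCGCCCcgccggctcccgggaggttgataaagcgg

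The Rtn4 window shown, the most upstream of 3, held 4 GC boxes and 2 CCAAT matches, the Rtn3 window 1 GC box and no CCAAT, and the Atl2 window 4 GC boxes and 1 CCAAT. Over all 32851 windows of the table, 35.7% held a GC box and 37.4% held CCAAT. None of these 3 windows matched the E-box CACGTG, which 7.15% of all windows held. Such matches describe letters only. Windows were at hand for 6 of the 10 members (Rtn1, Rtn3, Rtn4, Atl2, Atl3 and Tmbim1). The other Rtn4 windows, chr11:29693524-29693823 and chr11:29718313-29718612, held 1 GC box and none, and neither held CCAAT. The table gives 3 windows for Rtn1 as well, and gene-level counts add transcripts from all start sites.

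Among the reticulons, Rtn4 stood apart. RTN4, known as Nogo, is the reticulon whose neuronal form inhibits axon growth and whose shorter Nogo-B form is widely expressed. Its gene lies on chromosome 11 (29692947 to 29744331, mm10, plus strand). In CPM, which are counts per library total after scaling by the trimmed mean of M-values (TMM), the WT libraries D142, D150, D154 and D164 held 103, 102, 92.2 and 88.4. The CKO libraries D146, D149, D163 and D169 held 43.4, 36.1, 30.2 and 27.0. The lowest WT library was thus above every CKO library. The CKO mean was 35.5% of the WT mean, a log2 fold change (CKO over WT) of -1.49 ± 0.15 (SE, edgeR). Exons of Rtn4 share 1284 of 6991 bases with Eml6 on the opposite strand, which had 416 counts over all libraries against 16597 for Rtn4.

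Rtn3, a reticulon that in human cells also acts as a receptor for degradation of ER tubules by autophagy, was the most abundant of the reticulons per length. The WT libraries, in the order above, held 176, 168.7, 160.2 and 183 CPM, and the CKO libraries 151, 143, 132 and 119.9 CPM. All CKO libraries were below all WT libraries, but the step was small, with a log2 fold change of -0.33 ± 0.11 (SE), and Rtn3 was not called. A call here means an adjusted p below 0.05 in edgeR's quasi-likelihood test over all genes. Among the alternative fits described below, Rtn3 was called lower in 2, DESeq2 and the GC and length offset. Rtn1, best known from neurons and neuroendocrine cells, held 49.7, 38.1, 48.5 and 59.8 CPM in WT and 44.97, 57.7, 49.3 and 37.5 CPM in CKO, with full overlap. Its log2 fold change of -0.05 ± 0.17 (SE) was 0.10 with total-count scaling. The fourth reticulon, Rtn2, had at most 21 counts in a library.

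As levels in RPKM, which is CPM per kilobase of deposited gene length, the reticulons summed to between 54.8 and 61.0 in WT and between 35.2 and 45.3 in CKO. Rtn4 made up 23.9% ± 2.27 of that sum in WT and 11.7% ± 1.39 in CKO (mean ± SD, n = 4 each). Rtn3 made up 59.1% ± 0.92 and 65.5% ± 2.02. The share of Rtn1 was 17.0% ± 2.50 in WT and 22.8% ± 2.64 in CKO, while its level overlapped. The deposited length of Rtn4, 6991 bases, counts all annotated exons of the gene, whichever transcripts the cells hold. Shares and orders of genes in RPKM depend on such lengths.

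**Figure D1:**
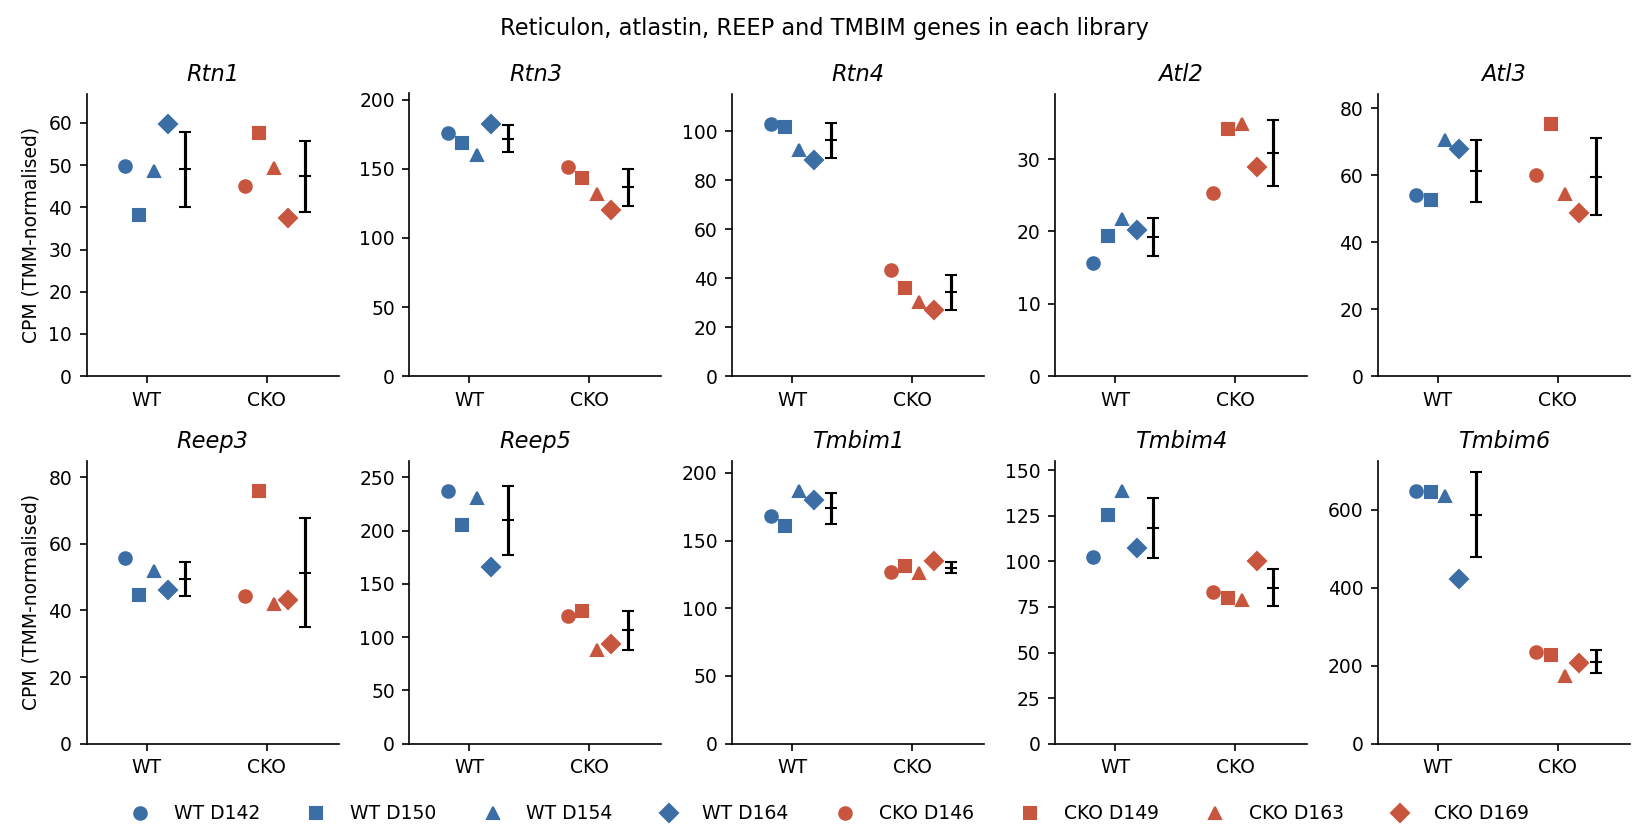
TMM-normalised CPM of each of the 10 genes (vertical axes from 0) in the 4 WT (blue) and 4 CKO (red) libraries; a symbol is 1 library and the black mark is the group mean with its SD. Rtn4 and Tmbim6 show the widest gap between the genotypes, Atl2 is the one gene higher in all CKO libraries, and CKO D149 stands above the rest for Reep3.

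The pair of atlastins did not move alike. Atl2 (chromosome 17, 79848390 to 79896123, minus strand) was the one member with all CKO libraries above all WT libraries. Its WT libraries held 15.6, 19.4, 21.7 and 20.1 CPM and its CKO libraries 25.4, 34.2, 34.9 and 28.9 CPM, and the least of the CKO libraries was D146. The log2 fold change was 0.68 ± 0.15 (SE) and became 0.35 once each library's trend with GC content and gene length was removed, where the call was lost. Without WT D142, WT D150, WT D154 or CKO D163 it ranged within 0.59 to 0.74 but was not called. Atl3, which like RTN3 serves in human cells as a receptor for autophagy of ER tubules, held 54.1, 52.5, 70.5 and 67.8 CPM in WT and 60.0, 75.3, 54.3 and 48.5 CPM in CKO. The groups overlapped and the log2 fold change was -0.04 ± 0.16 (SE), or 0.11 with total-count scaling. Atl3 and Rtn3 are neighbours on chromosome 19, 10750 bases apart on opposite strands. The neuronal atlastin gene Atl1 had at most 24 counts in a library, from exons that overlap Sav1 and Map4k5.

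Of the REEP genes, Reep5 carried most of the level and the difference. REEP5 is a tubule-shaping protein related to yeast Yop1. Reep5 (chromosome 18, 34344889 to 34373415, minus strand) held 237, 206, 230.4 and 165 CPM in the WT libraries and 119.8, 125, 88.2 and 93.8 CPM in the CKO libraries. Even D164, the WT library with the least Reep5, held more than CKO D149, the CKO library with the most. The CKO mean was 50.9% of the WT mean, a log2 fold change of -0.98 ± 0.16 (SE). Reep3, which in human cells helps to clear ER from mitotic chromosomes, held 55.6, 44.6, 52.0 and 46.0 CPM in WT and 44.3, 75.8, 41.9 and 43.2 CPM in CKO. The high CKO library was D149, and the log2 fold change of 0.05 ± 0.19 (SE) was -0.20 without it. Exons of Reep3 share 941 of 8294 bases with Gm31763 on the opposite strand, which had 18 counts over all libraries against 12475. Reep5 made up between 91.2% and 93.0% of the RPKM of the pair in WT and between 82.5% and 88.6% in CKO.

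All 3 TMBIM members were lower in every CKO library than in any WT library. Tmbim6 (chromosome 15, 99392882 to 99410049, plus strand) held 647, 645, 635 and 423 CPM in WT and 236, 229, 172 and 206 CPM in CKO. D164 lay well below the other WT libraries. The CKO mean was 35.9% of the WT mean, with a log2 fold change of -1.48 ± 0.16 (SE), and -1.59 without WT D164. Tmbim1, also called RECS1, encodes a protein of Golgi, endosomal and lysosomal membranes. Tmbim1 (chromosome 1, 74288247 to 74305622, minus strand) held 168, 160.5, 186 and 179.8 CPM in WT and 127, 131, 126 and 135 CPM in CKO. That is a narrow spread around a small step, with a log2 fold change of -0.42 ± 0.10 (SE). Total-count scaling gave -0.26 and no call, in a fit where the median of all genes also shifted upward by 0.16. The call was also lost with the B cell marker covariate and without WT D142, WT D150, WT D154, WT D164, CKO D163 or CKO D169. Exons of Tmbim1 share 3265 of 12659 bases with Gm29358 on the opposite strand, for which no count was available. Tmbim4, which encodes the Golgi anti-apoptotic protein GAAP, held 102, 125, 138 and 107 CPM in WT and 83.1, 80.2, 78.8 and 100.5 CPM in CKO. CKO D169 came close to WT D142. The log2 fold change was -0.47 ± 0.13 (SE), and the gene lay at the threshold itself, just on the uncalled side. It was called lower in 7 of the 18 alternative fits. Exons of Tmbim4 share 192 of 2581 bases with Irak3 on the opposite strand, which had 1623 counts against 25911.

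The summed RPKM of the TMBIM members lay between 148 and 207 in WT and between 78.1 and 94.6 in CKO. Tmbim6 made up 67.9% ± 4.41 of it in WT and 51.3% ± 4.02 in CKO (mean ± SD, n = 4 each), and Tmbim4 24.6% ± 3.24 and 37.1% ± 3.54. In both genotypes Tmbim6 was thus the highest of the 3 in RPKM, and it was also the highest in mean CPM. The shares rest on the deposited lengths, 12659 bases for Tmbim1. The sum leaves out the TMBIM genes Grina, at 87.0 RPKM in WT and 50.8 in CKO, and Ghitm, at 452 and 461.

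**Figure D2:**
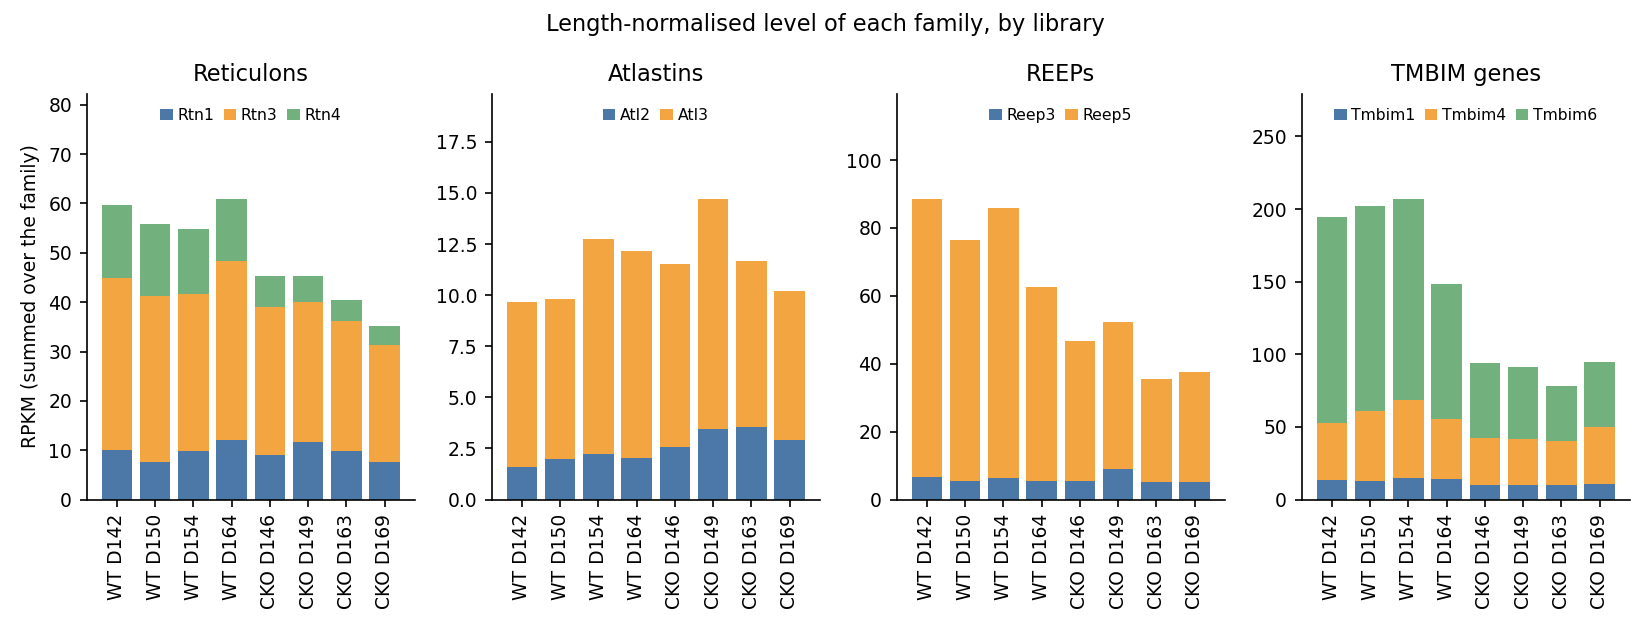
Stacked RPKM (CPM per kilobase of deposited gene length, vertical axes from 0 and different for each family) of the members by family in each library. The bars hold the members only, and other genes of these families are not in them. For the reticulon, REEP and TMBIM members the CKO bars are shorter, and the atlastin bars overlap. The shorter bars come mainly from Reep5 among the REEPs, from Tmbim6 among the TMBIM genes, and from both Rtn4 and Rtn3 among the reticulons.

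The members spanned a wide range of levels in RPKM, whose order depends on the deposited gene lengths. In WT, Tmbim6 led at 128 ± 24.0 RPKM, followed by Reep5 at 72.4 ± 11.2, Tmbim4 at 45.9 ± 6.47 and Rtn3 at 34.2 ± 1.91 (mean ± SD, n = 4). Each of these did not overlap the next. Rtn4 at 13.8 ± 1.03 and Tmbim1 at 13.7 ± 0.92 could not be ordered, nor could Rtn1 at 9.84 ± 1.78 and Atl3 at 9.14 ± 1.38. Reep3 followed at 5.97 ± 0.62 and Atl2 was last at 1.95 ± 0.26 RPKM. In CKO the first 4 kept their order, at 46.0 ± 6.25, 36.9 ± 6.34, 33.2 ± 3.90 and 27.2 ± 2.71 RPKM, but Tmbim6 overlapped Reep5 and Reep5 overlapped Tmbim4. Rtn4 averaged 4.89 ± 1.04 RPKM in CKO, where its libraries lay below those of Tmbim1, Rtn1 and Atl3, overlapped those of Reep3 and lay above those of Atl2 at 3.13 ± 0.46 RPKM.

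Of the 10 members, 5 were called, 4 lower in CKO (Rtn4, Tmbim6, Reep5 and Tmbim1) and 1 higher (Atl2), where 8.87% of the 11702 genes tested were called, 4.57% lower and 4.3% higher. The count was 3 without WT D142, WT D150, WT D154 or CKO D163. Over all genes these fits called 347 of 11883, 82 of 11882, 138 of 11888 and 70 of 11818 tested, in that order. Every CKO library was below every WT library for 6 members and above for 1, where 15.9% of all genes tested had groups that did not overlap, 8.09% below and 7.85% above. Since the members were picked with this contrast known, neither count is evidence about the families. The median log2 fold change was -0.38 over the members and 0.03 over all genes tested. With total-count scaling these were -0.21 and 0.19. As a description of how far the values moved, over the 18 alternative fits Rtn4 ran from -1.70 to -1.33, Tmbim6 from -1.59 to -1.32 and Reep5 from -1.06 to -0.82 on the log2 scale.

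**Figure D3:**
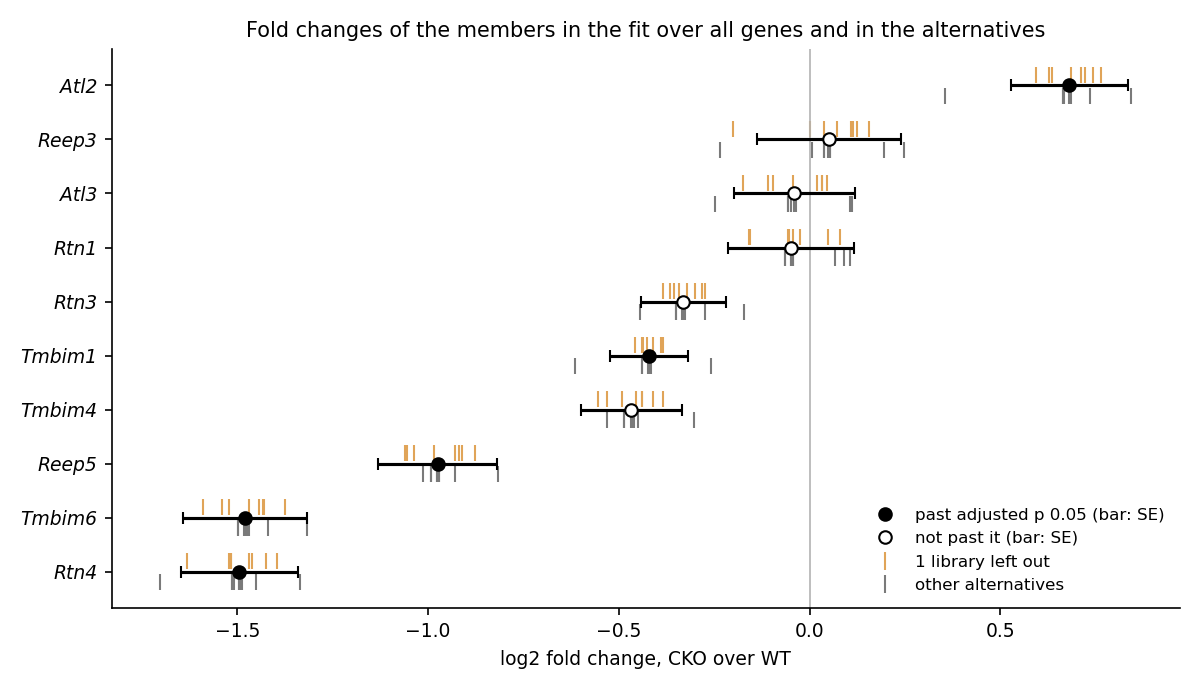
Log2 fold change (CKO over WT) of each member with its SE (circles and bars), with ticks for the fits that left out 1 library (orange, above) and for the other alternatives (grey, below). Rtn4, Tmbim6 and Reep5 stay well below 0 in each fit, Atl2 stays above 0 and drops to 0.35 in one, and the values of Rtn1, Atl3 and Reep3 fall on both sides of 0.

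Within CKO, D163 and D169 were the lowest libraries for 9 of the 10 members (5 and 4), and D149 was the highest for 4. Within WT, D142 and D154 were the highest for 4 members each. The members differ in transcript GC content, from 40.0% for Atl2 to 55.1% for Rtn1, with Tmbim6 at 53.6% and Rtn4 at 46.0%. After the GC and length trend was removed, Rtn4 stood at -1.70, Tmbim6 at -1.42, Reep5 at -1.01, Tmbim1 at -0.62, Tmbim4 at -0.45 and Rtn3 at -0.44 on the log2 scale.

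The sorted cells carried cDC markers throughout, with summed CPM of 10 markers between 33560 and 47152 in WT and between 26943 and 41264 in CKO and no member of that list called. Ccr7 and Cd74 were the largest of them. Itgax, which encodes CD11c, held only 5.79 to 9.33 CPM in WT and 6.23 to 10.5 CPM in CKO. Summed B cell markers (10 genes, 1 of 8 tested higher) lay between 29.8 and 57.0 CPM in WT and between 30.1 and 128 in CKO. Summed plasma cell markers (4 genes, 0 of 4 called in edgeR) lay between 32.7 and 60.6 CPM in WT and between 64.3 and 107 in CKO, without overlap. Each of the 4 genes overlapped on its own. Prdm1 was the largest, at 23.1 to 46.3 CPM in WT and 36.0 to 68.0 in CKO, and Sdc1 reached at most 1.65 CPM. T cell markers (8 genes, 2 of 7 tested higher) lay between 34.1 and 60.5 CPM in WT and between 42.8 and 80.2 in CKO. Erythroid markers (4 genes, 1 of 3 tested lower) lay between 50.9 and 168 CPM in WT and between 5.22 and 73.2 in CKO. Plasmacytoid dendritic cell markers (5 genes, 1 higher and 1 lower) lay between 677 and 1014 CPM in WT and between 503 and 732 in CKO. Bst2, the one called lower, held most of that sum, at 587 to 900 CPM in WT and 361 to 583 in CKO. Ly6d was the one called higher, and Siglech reached at most 1.21 CPM. The NK list and the macrophage and monocyte list overlapped between the genotypes with no called gene, and of the neutrophil markers Ly6g and Mpo were at 0 in all libraries. Their part in the differences above was not tested, except that with the B cell markers as a covariate Rtn4 stood at -1.45, Tmbim6 at -1.47, Reep5 at -0.93, Atl2 at 0.73 and Tmbim1 at -0.42 on the log2 scale. Atl2 and Tmbim1 were not called in that fit. In these bulk samples fewer cells of a type and less RNA per cell cannot be told apart.

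Other genes of ER structure and TMBIM function were taken from lists grouped by known function, 83 genes of which 73 were tested. These lists were also written with earlier results of these libraries known, so the adjusted p-values given for their genes are not independent evidence. Of these 5 fell, none rose and 68 did not pass. That is 6.85% of the 73, all lower in CKO, where 4.57% of all genes tested were called lower, 4.3% higher and 8.87% in either direction. The median log2 fold change was 0.05 over the 73 and 0.03 over all genes tested. Every CKO library was below every WT library for 8 of the 73 and above for 1. Of all genes tested, 8.09% lay below, 7.85% above and 15.9% in either direction. As the lists were written with results known, neither count is evidence about them. The count of calls lay between 0, without CKO D163, and 10, without CKO D146. It was 1 without WT D142, WT D150 or WT D154, 2 without CKO D169 and 9 without WT D164. Calls over all genes numbered 70 without CKO D163 and 1310 without CKO D146. They numbered 347, 82 and 138 without WT D142, WT D150 and WT D154, 457 without CKO D169 and 1468 without WT D164.

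Relatives of the TMBIM members and BCL-2 family partners held 3 of the 5, among 7 tested. Grina, which is TMBIM3, a Golgi and ER member of the family, held 161, 168.5, 212 and 177 CPM in WT and 113, 105, 90.9 and 110.9 CPM in CKO. No CKO library reached the WT range. Its log2 fold change was -0.78 ± 0.12 (SE), with an adjusted p = 0.0116 in edgeR (alternatives 2.00e-06 to 0.0574), lost without CKO D163 and after the GC and length correction, which gave -0.42. Mcl1, an anti-apoptotic BCL-2 protein, fell from 1079 ± 69.1 to 639 ± 194 CPM (mean ± SD, n = 4; edgeR adjusted p = 0.0357, alternatives 0.00313 to 0.129). Bak1, a pore-forming effector of mitochondrial apoptosis, fell from 3.24 ± 0.36 to 1.77 ± 0.23 CPM (edgeR adjusted p = 0.0377, alternatives 0.00262 to 0.124). The Mcl1 call was lost without WT D142, WT D150, WT D154, CKO D163 or CKO D169, and the Bak1 call without any single library other than CKO D149. Both calls were lost with the B cell marker covariate, and that of Bak1 also with total counts, with no filter and with the GC and length offset.

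The other 4 of this list did not pass in the TMM fit. Ghitm, the mitochondrial TMBIM5, averaged 1696 ± 43.8 CPM over WT and 1731 ± 243 over CKO. The anti-apoptotic genes Bcl2l1 and Bcl2 averaged 305 ± 18.2 and 17.3 ± 2.10 CPM over WT, against 302 ± 62.2 and 22.4 ± 2.97 over CKO. Bax, the effector that works beside Bak1, averaged 109.2 ± 16.7 CPM over WT against 114 ± 19.6 over CKO. The log2 fold change of Bax was 0.07, but 0.70 with the GC and length offset, where it was called higher (edgeR adjusted p = 0.0284). Faim2 (TMBIM2), 86962 bases from Tmbim6 on chromosome 15, had 0 counts in all libraries.

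Among reticulon receptors and partners, 1 of 12 tested passed. Pirb, an inhibitory receptor of myeloid cells that binds MHC class I and, on mouse neurons, Nogo, held 359, 338, 383 and 398 CPM in WT and 272, 239, 267 and 287 CPM in CKO. The genotypes did not overlap, and the log2 fold change was -0.47 ± 0.11 (SE; edgeR adjusted p = 0.0286, alternatives 2.13e-04 to 0.117). The call was lost when any of WT D142, WT D150, WT D154 and CKO D163 was left out, and total-count scaling gave -0.31 and no call. It was also lost with the B cell marker covariate. Pirb belongs to a family of similar genes between which reads may be split. The Nogo receptor gene Rtn4r had at most 1 count in a library and its co-receptor Lingo1 had 0. Sptlc2 and Sptlc1, subunits of the serine palmitoyltransferase that Nogo-B inhibits, averaged 191 ± 15.7 and 36.9 ± 2.83 CPM over WT, against 169.9 ± 21.1 and 38.8 ± 5.33 over CKO. Ormdl1 and Ormdl2, regulators of that enzyme, averaged 21.1 ± 0.85 and 21.8 ± 2.63 CPM over WT, against 22.1 ± 1.70 and 19.8 ± 1.37 over CKO. Reads of Ormdl2 and Dnajc14 cannot be told apart over 66.7% of its exons. Nus1, the Nogo-B receptor, averaged 16.8 ± 2.14 CPM over WT against 19.1 ± 2.23 over CKO.

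The remaining ER-shaping genes gave no call among 15 tested in edgeR, 3 at an unadjusted p below 0.05, 2 in DESeq2 and 0 in limma-voom. Of all 11702 genes tested, DESeq2 called 2002 and limma-voom 1185. The share of all genes at an unadjusted p below 0.05 was not computed. Unadjusted counts, here and for the lists below, are therefore descriptions without a background. Rab10, a GTPase of ER tubule dynamics, averaged 576 ± 36.5 CPM over WT against 549.5 ± 56.3 over CKO, and the sheet protein gene Ktn1 487 ± 105 against 576 ± 64.0. Arl6ip1, a small hairpin protein of tubules, averaged 540.5 ± 46.0 CPM over WT against 451 ± 47.5 over CKO. Tmem33, a partner of reticulons, averaged 196 ± 37.4 CPM over WT against 143 ± 19.8 over CKO and was called in 2 alternative fits, DESeq2 and the GC and length offset. Rab18, a GTPase of ER and lipid droplets, averaged 129 ± 12.0 CPM over WT against 146.5 ± 14.4 over CKO. The other ER-phagy receptors gave no call among 7 (edgeR; 1 unadjusted, 1 in DESeq2, 0 in limma-voom), with Sec62 at 54.5 ± 12.4 CPM in WT against 44.6 ± 5.82 in CKO and Retreg2 at 53.4 ± 2.72 against 49.0 ± 4.82. The receptors Retreg1 and Tex264 averaged 18.6 ± 3.78 and 23.4 ± 1.17 CPM over WT, against 20.7 ± 4.46 and 19.5 ± 0.96 over CKO, and Cdk5rap3, a partner in ER-phagy, 45.1 ± 0.61 against 47.2 ± 9.05.

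In the IRE1 arm of the ER stress response, which TMBIM6 is known to restrain, 1 of 10 fell. Dnajb9, an ER chaperone induced through XBP1, held 31.4, 29.5, 28.6 and 26.2 CPM in WT and 21.6, 22.7, 18.1 and 18.7 CPM in CKO, with no overlap (log2 fold change -0.51 ± 0.13, SE; edgeR adjusted p = 0.0364, alternatives 0.00291 to 0.130). It was not called without WT D142, WT D150, WT D154, CKO D163 or CKO D169, nor with total counts, no filter or the B cell marker covariate. Hspa5, the ER chaperone BiP, stood at 1759 ± 152 and 1556 ± 175 CPM, and Edem1, a factor of ER-associated degradation, at 411 ± 17.8 and 459 ± 61.0 CPM. Xbp1, the transcription factor spliced by IRE1, averaged 282 ± 23.3 CPM over WT against 259.7 ± 33.6 over CKO. Herpud1 of ER-associated degradation averaged 361 ± 60.6 against 324 ± 60.3, and Traf2, an adaptor of IRE1, 317 ± 18.0 against 307 ± 50.1. None of these 5 was called.

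Genes of ER calcium handling gave no call among 11 (edgeR; 3 unadjusted, 2 in DESeq2, 1 in limma-voom). Orai1, the plasma membrane calcium channel opened on store depletion, came closest, with 139.9 to 210.1 CPM in WT and 97.1 to 137.6 CPM in CKO (edgeR adjusted p = 0.0503, alternatives 0.0154 to 0.388). Its groups did not overlap, and it was called in 9 of the 18 alternative fits. Saraf, which limits store-operated calcium entry, averaged 131 ± 11.6 CPM over WT against 122 ± 17.0 over CKO, and the ER calcium sensor Stim2 22.9 ± 4.54 against 26.7 ± 2.45. The calcium pump gene Atp2a2 averaged 55.9 ± 15.6 against 62.8 ± 10.96 CPM, and the ER calcium leak channel Tmco1 30.5 ± 1.77 against 31.2 ± 4.15. Genes of ER contact sites likewise gave no call among 11 (edgeR; 4 unadjusted, 3 in DESeq2, 1 in limma-voom), with the ER anchor Vapa at 311 ± 22.0 CPM in WT against 339 ± 43.7 in CKO and the plasma membrane tether Esyt1 at 188 ± 11.2 against 141 ± 38.2. Esyt1 was called lower in 2 alternative fits, the GC and length offset, with a log2 fold change of -0.58, and without CKO D146. The sterol carrier Osbp averaged 52.3 ± 13.3 CPM over WT against 30.2 ± 12.9 over CKO, and was called in 2 alternative fits, DESeq2 and without CKO D146. Mfn2 and Rmdn3, which link ER and mitochondria, averaged 48.3 ± 11.04 and 94.9 ± 12.3 CPM over WT, against 58.7 ± 8.17 and 86.1 ± 5.17 over CKO.

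**Figure D4:**
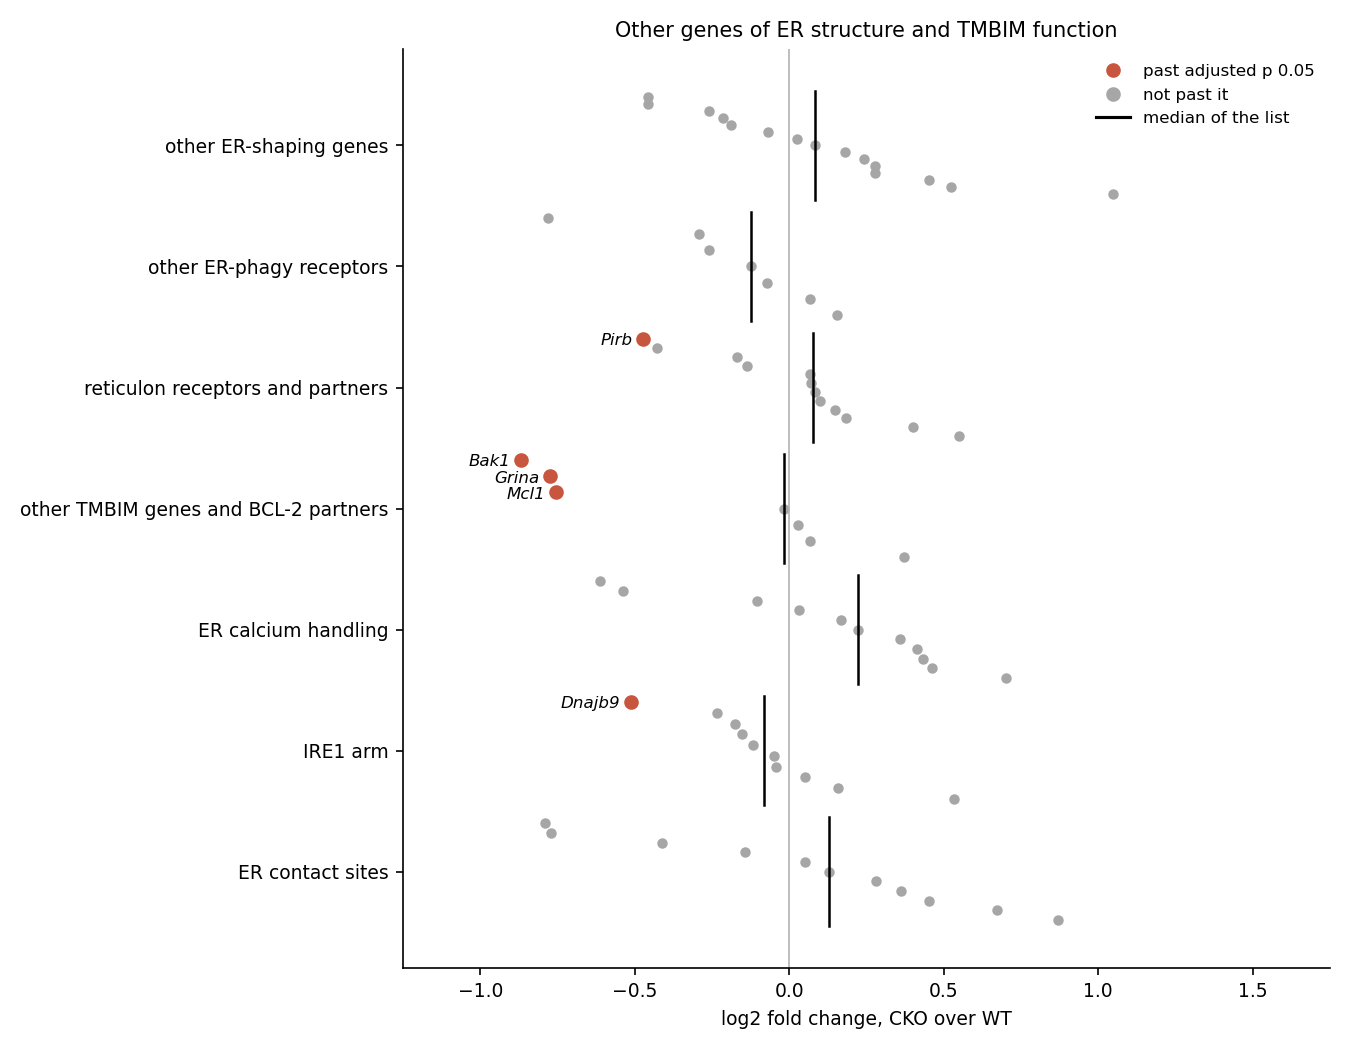
Log2 fold change (CKO over WT, horizontal axis) of the 73 tested genes of the other lists, 1 row per list; a point is a gene, red where the adjusted p was below 0.05, and the black line is the list's median. The 5 called genes, Bak1, Grina, Mcl1, Dnajb9 and Pirb, all lie to the left of 0, and the list medians lie between -0.12 and 0.22.

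The genes whose pattern over the 8 libraries lay nearest to that of Rtn4 were Gnb2, Rab21, Ppp2cb, Mbd2 and Asna1, by the root mean square difference of centred log2 CPM (0.10 to 0.17, against a median of 0.80 over 6716 genes). Tmbim6 ranked 10 in that order at 0.19, Reep5 ranked 54 at 0.31, and Rtn3 ranked 883 at 0.60. For Tmbim6 the nearest were Mbd2, Ppp2cb, Nectin2, Rtn4 and Gnb2, at 0.19 to 0.21. Gnb2 is a G protein beta subunit, Rab21 an endosomal GTPase, Ppp2cb a phosphatase 2A catalytic subunit, Mbd2 a reader of methylated DNA, Asna1 the ATPase that targets tail-anchored proteins to the ER, and Nectin2 an adhesion protein. This measure includes the genotype difference itself, so it gathers genes of a similar fold change.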

How the data were processed

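Gene counts came from 8 RNA-seq libraries, 4 WT and 4 CKO. Per the labels' protocols, polyA RNA was turned into cDNA by the SMART-Seq v4 low-input method, and a Vazyme kit made the libraries. The submitters' processing notes list fastp 0.23.2, HISAT2 2.2.1 and mm10, and the counting program and its strand setting are not given there. The table as deposited has raw counts, in whole numbers, for each gene and the length of the gene in bases. Without a stated strand, reads of genes with overlapping exons cannot be told apart.

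Groups came from the titles, which do not say that libraries are separate animals, so a p-value reflects the variation among these libraries and that may be technical. No 2 libraries were copies of each other (smallest chi-square per degree of freedom 46.4). filterByExpr kept 11702 of 31053 genes. They were tested with edgeR 4.0.16 in R 4.3.3 (TMM, robust quasi-likelihood fit, F test) and Benjamini-Hochberg adjustment over all of them. The SE is the log2 fold change over the square root of F. Centred log2 CPM used a prior count of 2. On simulated counts with the levels and library sizes of this comparison (11583 genes), 200 genes were changed. Of these, 62.2% of 2-fold and 96.0% of 4-fold changes were called, with 10 false calls elsewhere. Counts were drawn independently for each gene, without effects shared within a library, and the real comparison called 1038 genes. The rates may therefore differ in the real data.

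The members and lists were chosen with earlier results of these data known. Named genes were all members and, of each other list, up to 5 called genes by smallest p and up to 5 others by highest mean CPM. Genes of the lists named outside this rule (Rtn2, Atl1, Faim2, Rtn4r, Lingo1 and Vapb) were chosen after their counts or results were seen. The nearest patterns were the first 5 among tested genes of at least 10 CPM, leaving out symbols of predicted genes. The alternatives were scaling by total counts, by the upper quartile or by RLE, a filter on a mean of 5 CPM or none, DESeq2 1.42.0, voom in limma 3.58.1, a fit without the robust option, a GC and length offset (natural splines, 5 degrees of freedom, GENCODE M21 transcripts), the mean log2 CPM of B cell markers as a covariate, thresholds of 0.01 and 0.1, and leaving out each library.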

Additional observations from a re-analysis of the deposited data

Results flagged for a closer look

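Within genotype, 3 values of the members and of the list genes named by the rule above stood apart by Dixon's ratio from their group's other libraries. The check covered 98 groups of 4 libraries, and chance marks about 1 group in 20. Tmbim6 in WT D164 was at 423 CPM, where the nearest WT library held 635 CPM. Reep3 in CKO D149 was at 75.8 CPM, where the nearest CKO library held 44.3 CPM. Retreg1 was also apart in CKO D149, at 27.4 CPM, where the nearest CKO library held 19.1 CPM.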

How the results depend on the processing

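Over all genes the count of calls, 1038, was 2002 with DESeq2, 449 (281 higher, 168 lower) with the B cell marker covariate, 8 at a threshold of 0.01, 2119 at 0.1 and 70 to 1468 on leaving out 1 library, lowest without CKO D163. Total-count scaling called 1080 higher and 311 lower, against 503 and 535. The member count, 5, was 3 with the B cell marker covariate, 4 with total counts, 2 at a threshold of 0.01 and 3 to 5 on leaving out 1 library. It was 7 with DESeq2 and at a threshold of 0.1. With RLE, the upper quartile, the filter on a mean of 5 CPM, voom or the GC and length offset it was 6. The count over the other lists, 5, was 13 with DESeq2, 8 with the GC and length offset, 3 with total counts, 1 with the B cell marker covariate, 12 at a threshold of 0.1 and 0 at 0.01. It was 0 to 10 on leaving out 1 library. At 0, without CKO D163, edgeR gave 16 genes at an unadjusted p below 0.05, and the share of all genes was not computed. The cause was not tested.

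Genes that were not called changed sign as follows, as log2 fold changes. With total counts Rtn1 stood at 0.10, Atl3 at 0.11, Rab10 at 0.089, Retreg2 at 0.041, Ormdl2 at 0.034, Bcl2l1 at 0.13, Saraf at 0.057, Herpud1 at 0.0069, Traf2 at 0.11, Xbp1 at 0.041 and Rmdn3 at 0.023. With the GC and length offset Rtn1 stood at 0.067, Reep3 at -0.24, Ktn1 at -0.11, Retreg2 at 0.12, Tex264 at 0.16, Ormdl1 at -0.074, Ghitm at -0.088, Bcl2l1 at 0.14, Tmco1 at -0.072 and Edem1 at -0.0084. With the B cell marker covariate Rtn1 stood at 0.089, Atl3 at 0.10, Rab10 at 0.027, Cdk5rap3 at -0.14, Sptlc1 at -0.059, Bcl2l1 at 0.14 and Bax at -0.13. On leaving out 1 library Rtn1 ran from -0.16 to 0.0796, Atl3 from -0.17 to 0.046, Reep3 from -0.20 to 0.16, Cdk5rap3 from -0.025 to 0.18, Retreg1 from -0.0074 to 0.29, Ghitm from -0.0401 to 0.10, Bcl2l1 from -0.16 to 0.0703, Bax from -0.0046 to 0.17, Tmco1 from -0.026 to 0.12 and Traf2 from -0.14 to 0.042. No called member or list gene named in the report changed sign in any alternative. Gnb2, Rab21, Ppp2cb, Mbd2, Asna1 and Nectin2 were not followed over the alternatives. Bak1 had no value with the filter on a mean of 5 CPM. No paired analysis was possible because the labels share no replicate number between the genotypes. Low counts limit what can be said of Bak1 and of the genes not tested.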
